A study of Mus musculus with 2 samples.

Results

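The genes described are 32 genes of DNA replication and S phase, chosen by name from the 32285 genes of the deposited matrices: the origin licensing factors Mcm2 to Mcm7, Cdc6 and Cdt1; the helicase activation factors Cdc45, Gins2 and Mcm10; Pcna, Pclaf, Pola1, Prim1, Fen1 and Lig1, which act in synthesis and ligation; Tyms, Rrm1, Rrm2, Dut and Tk1, which supply nucleotides; Uhrf1, Hells, Chaf1b, Clspn, Tipin and Slbp, which act at the fork and on new chromatin; and Ccne1, Ccne2, E2f1 and Cdk6, which act at the step from G1 into S phase. All 32 were found in both libraries. They were measured by droplet single-cell RNA sequencing in cells from tumours of MC38, a mouse colon carcinoma line, taken 14 days after the line was inoculated. The groups are wild-type mice (WT), with 1 library, and mice with the genotype Ifnar1-SA, also with 1 library; Ifnar1 codes for a subunit of the receptor for type I interferons, and both groups were left untreated. The sources used here give neither the meaning of SA nor the number of animals behind each library. With 1 library per genotype no test between genotypes can be made, "higher" and "lower" describe these libraries, and every interval is a 95% interval that covers counting error only.

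Replication starts at origins where the ORC complex, CDC6 and CDT1 load the ring-shaped MCM helicase in G1. At the start of S phase kinases and the factors CDC45 and GINS switch the helicase on, and polymerase alpha with its primase begins DNA strands that PCNA, the sliding clamp, helps to extend. Most of these genes are transcribed in waves under E2F transcription factors, which cyclin D with CDK4 or CDK6 and cyclin E with CDK2 release from the RB proteins. In tumours, T cells that meet antigen can enter the cycle, as can macrophages and the tumour cells.

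As E2F-type letters, TTCCCGC as the first form, TTGGCGC as the second form, TTCGCGC as the third form and TTGCCGC as the fourth form were searched on both strands in RefSeq promoters (GRCm38.p6, 250 bases before to 50 after the annotated start), where 28 of the 32 genes matched with 33 promoters. At least 1 match lay in 20 of these 33 (60.6%), against 9.57% of 32851 promoters of that length, and 10 of the 33 held at least 2, against 1.18% of all. Matches may overlap, as TTGGCGC and the reverse complement of TTCGCGC do in Mcm6. CCAAT, the letters of the NF-Y type box, was in 18 of 33 (54.5%) against 37.4% of all promoters, and TTTGAA, the letters of the CHR element of many mitotic genes, in 3 of 33 (9.09%) against 17.9%. The median GC content was 58.3% in these 33 promoters and 52.7% in all. A match is a description and not a binding site. The following 6 windows of 180 bases end at the base before the annotated start, with E2F-type and CCAAT letters of either strand in capitals; they show how the letters are arranged where they are dense (Mcm5, chr8:75109329-75109508, plus strand; Mcm6, chr1:128359706-128359885, minus strand; Pola1, chrX:93632156-93632335, minus strand), without CCAAT letters beside them (Hells, chr19:38930810-38930989, plus strand), in a nucleotide supply gene (Rrm1, chr7:102441515-102441694, plus strand), and in Cdk6, which has neither (chr5:3343713-3343892, plus strand).
Mcm5: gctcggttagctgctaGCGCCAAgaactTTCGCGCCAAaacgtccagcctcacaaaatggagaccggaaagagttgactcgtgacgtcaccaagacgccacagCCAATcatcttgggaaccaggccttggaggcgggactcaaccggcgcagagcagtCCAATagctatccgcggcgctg
Mcm6: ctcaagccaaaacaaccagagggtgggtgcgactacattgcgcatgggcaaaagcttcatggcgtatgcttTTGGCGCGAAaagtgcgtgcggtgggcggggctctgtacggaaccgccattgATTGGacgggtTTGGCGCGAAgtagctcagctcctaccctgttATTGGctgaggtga
Pola1: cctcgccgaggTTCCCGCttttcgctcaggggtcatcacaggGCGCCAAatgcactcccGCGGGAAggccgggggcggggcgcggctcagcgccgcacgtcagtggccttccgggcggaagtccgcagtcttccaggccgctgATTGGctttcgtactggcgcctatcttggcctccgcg
Hells: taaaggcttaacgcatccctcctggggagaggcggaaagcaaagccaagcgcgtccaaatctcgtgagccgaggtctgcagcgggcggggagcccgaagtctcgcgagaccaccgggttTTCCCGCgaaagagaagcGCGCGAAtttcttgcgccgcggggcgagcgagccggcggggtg
Rrm1: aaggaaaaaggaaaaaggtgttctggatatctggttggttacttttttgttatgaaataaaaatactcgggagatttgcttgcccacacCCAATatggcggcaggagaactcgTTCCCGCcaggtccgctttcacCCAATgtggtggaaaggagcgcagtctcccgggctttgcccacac
Cdk6: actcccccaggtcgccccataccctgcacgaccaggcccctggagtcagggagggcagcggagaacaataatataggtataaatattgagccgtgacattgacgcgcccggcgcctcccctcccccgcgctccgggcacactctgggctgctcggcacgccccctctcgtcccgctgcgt

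The libraries held 55497066 (WT) and 62732220 (Ifnar1-SA) UMIs, unique molecular identifiers that each stand for 1 captured transcript. Of the barcodes, 4058 and 5001 had at least 1000 UMIs and 500 genes and at most 10% mitochondrial UMIs, and 7 barcodes with at least 1000 UMIs occurred in both libraries. The labels call the cells both immune cells and CD8 T cells, but the data hold several lineages, so cells were gated on UMIs: CD8 T cells (1012 WT, 701 Ifnar1-SA), regulatory T cells (344 and 504), macrophages (1404 and 1963) and cells with at least 10 UMIs of Rhox5, Tm4sf1 and Sdc2 (174 and 190). A further 239 and 398 barcodes met more than 1 gate and were left out. The T cell gates held the markers that chose them (Cd3e at 607 and 629 CPM, UMIs scaled to 1 common total for every gate and library, in CD8 T cells; Foxp3 at 291 and 361 CPM in regulatory T cells), and Csf1r and Adgre1 were at 341 to 386 CPM in macrophages. The fourth gate was proposed as tumour-like, but Epcam, Krt8 and Krt18 were at 0 to 0.102 CPM in it while Col3a1 was at 1870 and 1638 CPM and Dcn at 690.0 and 504 CPM. These cells are therefore called Rhox5-gate cells.

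The libraries also differed in sex-linked transcripts. Of the 1012 WT CD8 T cells 979 had UMIs of Xist and none of 4 Y-linked genes, and 1 had Y-linked UMIs alone. Of the 701 Ifnar1-SA CD8 T cells 461 had Xist alone, 134 had Y-linked UMIs alone and 95 had neither. Macrophage transcripts were higher in the Ifnar1-SA T cell gates as well: all 7 macrophage markers were detected in both libraries, and summed to 424 (WT) and 1129 CPM (Ifnar1-SA) in CD8 T cells and to 537 and 1491 CPM in regulatory T cells, led by Apoe (184 and 524 CPM in CD8 T cells) and Lyz2 (122 and 430.0 CPM). The part of these macrophage transcripts in the differences below was not tested.

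Most of the replication genes were highest in regulatory T cells and lowest in macrophages. Regulatory T cells had the highest level of the 4 gates for 25 of the 32 genes in WT and for 23 in Ifnar1-SA, and macrophages the lowest for 28 and 25. Relative to CD8 T cells of the same library, the median gene was at 1.14 times the level in WT regulatory T cells and 1.18 times in Ifnar1-SA ones, at 0.440 and 0.568 times in macrophages, and at 0.694 and 0.963 times in Rhox5-gate cells. The step between the T cell gates was often within counting error: for Mcm6, 1 of the helicase subunits, WT levels were 103 CPM (95.6 to 109.9) in CD8 T cells and 108 CPM (96.3 to 121) in regulatory T cells. E2f1, a transcription factor of the E2F family, did not follow the order, with 30.6 CPM in WT macrophages against 24.9 CPM in WT CD8 T cells and 19.7 CPM in WT regulatory T cells. Dut was higher in CD8 T cells than in regulatory T cells. It was at 509 CPM (493 to 524) against 393 CPM (370 to 417) in WT, and at 348 against 248 CPM in Ifnar1-SA.

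**Figure D1:**
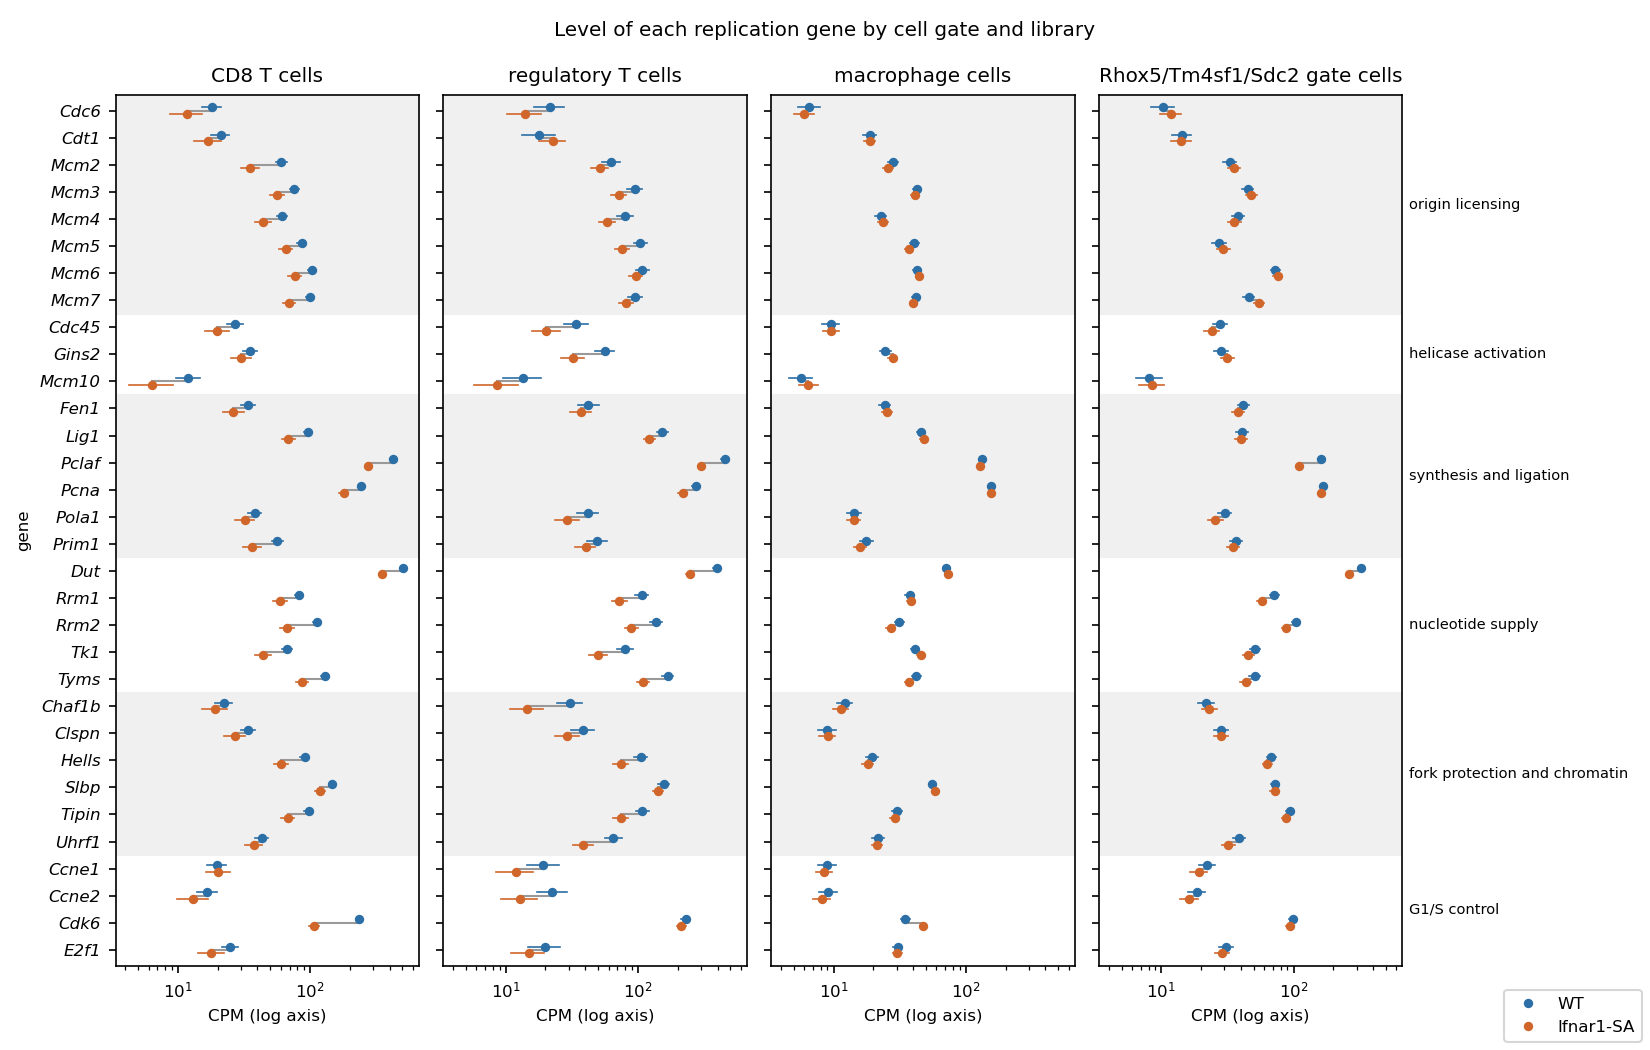
Level of each of the 32 genes in CPM (log axis) in the 4 gates, WT in blue and Ifnar1-SA in orange, with exact Poisson 95% intervals as thin bars and genes grouped by role. In the CD8 T panel orange lies left of blue for all genes but Ccne1, while in the macrophage panel the points of most genes overlap.

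UMIs of these genes were found in free RNA too. In barcodes of 1 to 100 UMIs, which hold RNA from broken cells, the 32 genes summed to 1513 (WT) and 1349 CPM (Ifnar1-SA), against 3119 and 2144 CPM in CD8 T cells, and 1132 CPM in macrophages of both libraries. In migratory dendritic-type cells (Ccr7, Fscn1 and Ccl22 positive), which rarely divide, they summed to 583 and 522 CPM. The macrophage levels thus lay between those of the non-dividing cells and of the free RNA.

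In CD8 T cells the replication genes were lower in the Ifnar1-SA library without exception among those counted. A gene was counted where its mean over both libraries was at least 20 CPM, which 27 of the 32 passed. Cdc45, E2f1 and Chaf1b passed through their WT level, with an Ifnar1-SA level below 20 CPM. Of the 27 counted, 27 were lower in Ifnar1-SA, against 49.3% of the 4970 genes counted in this gate. At least 1.5-fold lower were 6 of the 27, against 2.58% of all genes, and 0 were at least 1.5-fold higher, against 3.24%. Their median log2 ratio was -0.48 and that of all genes 0.00. The intervals of 23 of the 27 lay wholly below 0, against 17.6% of all genes. The count past 1.5-fold was 2 with G2/M-high cells (defined below) and other cells weighted alike in both libraries. It was 3 at a limit of 5% mitochondrial UMIs and 10 with cells of more than 1 gate kept. By Xist and Y-linked UMIs it ran from 1 to 10. The share over all genes is not given for these recomputed counts, so they cannot be set against a background.

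Cdk6, which encodes a kinase of the G1 phase, differed most. Its level in CD8 T cells was 233 CPM (222.8 to 244) for WT against 107 CPM (97.4 to 117) for Ifnar1-SA, a log2 ratio of -1.13 (-1.28 to -0.98), and after thinning every cell to 2000 UMIs 34.1% of WT and 16.7% of Ifnar1-SA cells had a UMI of it. E2f1 was at 24.9 and 17.9 CPM, a log2 ratio of -0.48 (-0.87 to -0.10). The cyclin E genes were below the minimum: Ccne1 was at 19.6 and 20.1 CPM and Ccne2 at 16.7 and 13.0 CPM, and the intervals of their ratios include 0.

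Of the licensing factors, 6 of the 8 were counted in CD8 T cells, namely the MCM subunits. Mcm2 was at 60.7 (WT) and 35.1 CPM (Ifnar1-SA), with a log2 ratio of -0.79 (-1.06 to -0.53). The other 5 subunits lay in a narrow range, from Mcm5 (86.2 and 65.2 CPM, -0.40) to Mcm7 (99.7 and 69.4 CPM, -0.52). The loading factors Cdc6 (18.1 and 11.7 CPM) and Cdt1 (21.0 and 16.8 CPM) were not counted. Of the helicase activators, Cdc45 was at 27.0 and 19.9 CPM and Gins2, a GINS subunit, at 35.3 and 30.1 CPM; the interval of Gins2 (-0.54 to 0.07) includes 0, and Mcm10 (12.0 and 6.41 CPM) was not counted.

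All 5 nucleotide supply genes and all 6 synthesis genes were lower, as were all 27 genes counted in this gate, against 49.3% of all genes. Rrm2, the regulated subunit of ribonucleotide reductase, was at 112 (WT) and 67.0 CPM (Ifnar1-SA), a log2 ratio of -0.74 (-0.93 to -0.55). Tyms, the thymidylate synthase gene, was at 129 and 87.1 CPM (-0.57), and Tk1, thymidine kinase, at 67.1 and 44.4 CPM (-0.60). Prim1, the primase subunit, was at 56.6 and 36.5 CPM (-0.63, -0.90 to -0.37), and Pclaf, a PCNA-binding factor, at 421 and 276 CPM (-0.61). Pcna itself was at 244 and 179 CPM (-0.45, -0.57 to -0.33). Among the fork and chromatin genes Hells, a chromatin remodeller, was at 90.9 and 60.8 CPM (-0.58), while Uhrf1, a reader of hemimethylated DNA, was at 43.1 and 37.6 CPM with an interval that includes 0 (-0.47 to 0.07).

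Regulatory T cells showed lower levels of nearly all the genes in Ifnar1-SA too. Here 27 genes were counted and 26 were lower, against 51.6% of 5249 genes, with 9 at least 1.5-fold lower, against 2.8% of all, and 0 at least 1.5-fold higher, against 4.4%. The median log2 ratio was -0.47 and that of all genes -0.01. The count past 1.5-fold was 4 with G2/M-high and other cells weighted alike and 5 with cells of more than 1 gate kept. Against WT it was 1 in Ifnar1-SA cells without Xist and 0 in those with Y-linked UMIs alone, where the medians were above 0 (0.15 and 0.48). Only 24 Ifnar1-SA cells of this gate had Y-linked UMIs alone. For these recomputed counts, too, the share over all genes is not given. The gene that was higher was Cdt1, at 17.9 (WT) and 22.6 CPM (Ifnar1-SA), with an interval from -0.20 to 0.89. Cdt1 passed the minimum of 20 CPM only through its Ifnar1-SA level.

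The genes with the greatest differences were other ones than in CD8 T cells. Chaf1b, a subunit of the CAF-1 histone chaperone, had 30.6 CPM in WT against 14.6 CPM in Ifnar1-SA regulatory T cells. Its log2 ratio was -1.07 (-1.61 to -0.54), from 84 and 49 UMIs, and it passed the minimum of 20 CPM through its WT level. Gins2 was at 56.1 and 32.1 CPM (-0.80, -1.17 to -0.44), Uhrf1 at 65.2 and 38.4 CPM (-0.76, -1.10 to -0.43) and Cdc45 at 34.3 and 20.2 CPM (-0.76, -1.23 to -0.29). Cdk6 was at 229.9 and 213 CPM, and its interval (-0.27 to 0.05) includes 0. Whether Cdk6 differs between the T cell gates in its response to genotype was not tested. The intervals of its ratios do not overlap between these gates, while those of Chaf1b, Gins2, Uhrf1 and Cdc45 do.

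All 5 nucleotide supply genes were lower in regulatory T cells, as were 26 of the 27 genes counted, against 51.6% of all genes. The nucleotide supply genes ranged from Rrm1 (107 and 72.3 CPM, -0.57) to Tk1 (80.2 and 50.01 CPM, -0.68). Rrm2 was at 137 and 89.3 CPM (-0.62), Tyms at 168 and 110.2 CPM (-0.61) and Dut, the dUTPase gene, at 393 and 248 CPM (-0.67). Of the 7 licensing factors counted, Mcm3, Mcm4 and Mcm5 had intervals wholly below 0, as had 18 of the 27 genes and 15.6% of all genes. Mcm5 was at 104.6 and 75.6 CPM (-0.47), Mcm6 at 108 and 96.5 CPM (-0.17), Pcna at 275 and 218 CPM (-0.33) and Pclaf at 453 and 301 CPM (-0.59). E2f1 (19.7 and 14.9 CPM) and Ccne2 (22.6 and 12.8 CPM) were not counted.

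**Figure D2:**
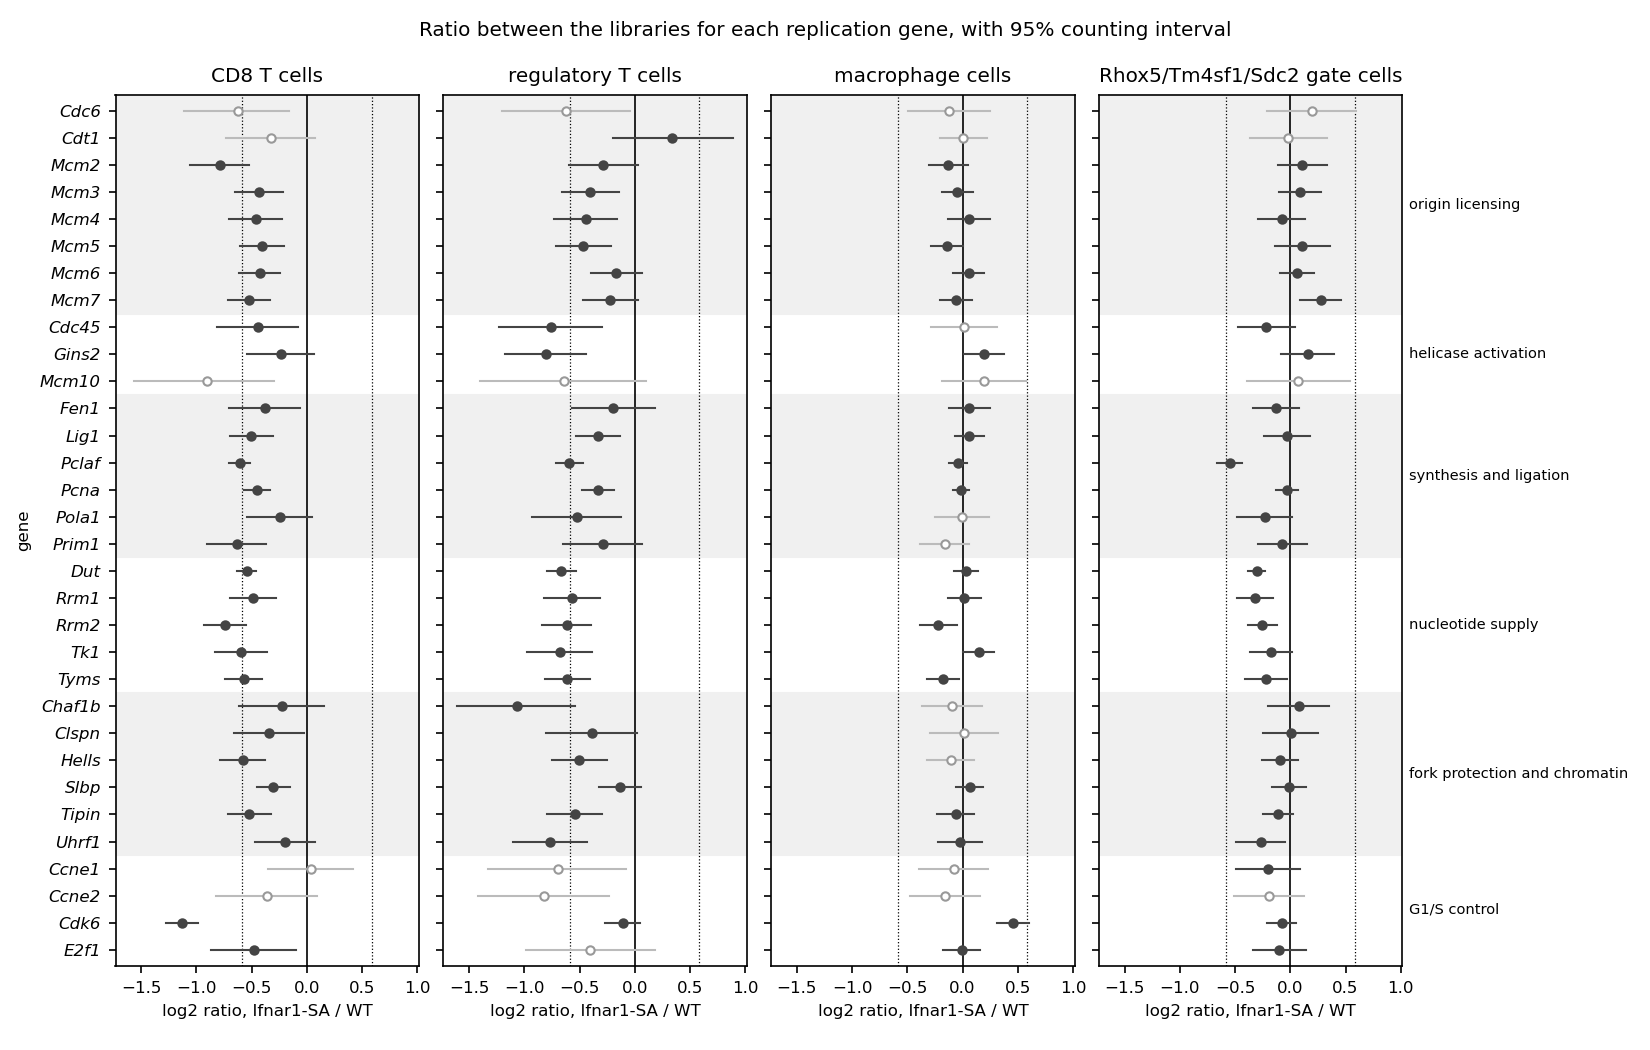
Log2 ratio of Ifnar1-SA over WT for each gene in the 4 gates with exact 95% counting intervals; filled points passed the minimum of 20 CPM, open points did not, and dotted lines mark 1.5-fold. Points lie left of 0 in both T cell panels except Ccne1 in CD8 T cells and Cdt1 in regulatory T cells, with Cdk6 farthest in CD8 T cells (-1.13) and Chaf1b in regulatory T cells (-1.07), and around 0 in macrophages.

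Macrophages showed no shift of the size seen in the T cell gates, though the genes were lower more often than all genes of this gate. Of 21 genes counted 11 were lower and 10 higher in Ifnar1-SA, where 31.7% of 4826 genes were lower; 0 were 1.5-fold lower or higher, against 0.829% and 1.31% of all genes. The median log2 ratio was -0.01 and that of all genes 0.07. Pcna was at 156 (WT) and 155 CPM (Ifnar1-SA), Mcm5 at 40.9 and 37.0 CPM, Pclaf at 133 and 129 CPM and E2f1 at 30.6 and 30.4 CPM, each with an interval that includes 0. Cdk6 went the other way than in CD8 T cells, at 34.8 (WT) and 47.7 CPM (Ifnar1-SA), a log2 ratio of 0.45 (0.31 to 0.60). T cell transcripts were higher in the Ifnar1-SA macrophage gate as well. The 5 CD8 T markers summed to 71.0 (WT) and 128 CPM (Ifnar1-SA), and the 5 regulatory T markers to 64.6 and 145 CPM. The part of these T cell transcripts in the Cdk6 difference was not tested. Smaller differences whose intervals exclude 0 were those of Rrm2 (31.5 and 27.1 CPM, -0.22), Tyms (42.3 and 37.5 CPM, -0.17), Gins2 (24.6 and 28.1 CPM, 0.19) and Tk1 (41.3 and 45.7 CPM, 0.15). Ccne2 was below the minimum at 9.06 and 8.12 CPM.

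In Rhox5-gate cells 28 genes were counted, of which 20 were lower and 8 higher in Ifnar1-SA, against 39.7% of 5411 genes lower; 0 were past 1.5-fold, against 1.05% lower and 0.222% higher. The median log2 ratio was -0.09 and that of all genes 0.04. Ccne1, at 22.1 (WT) and 19.2 CPM (Ifnar1-SA), passed the minimum through its WT level. Of the 6 licensing factors counted, Mcm7 alone had an interval that excludes 0, at 45.7 (WT) and 55.2 CPM (Ifnar1-SA), with a log2 ratio of 0.27 (0.09 to 0.46). The 5 nucleotide supply genes were all lower, with Rrm1 at 71.6 and 57.3 CPM (-0.32, -0.48 to -0.16), Dut at 325 and 263 CPM (-0.31) and Rrm2 at 104.2 and 87.5 CPM (-0.25). Pclaf differed most, at 162 and 111 CPM (-0.55, -0.66 to -0.44). Pcna was at 166 and 162 CPM, Cdk6 at 99.3 and 94.0 CPM and E2f1 at 30.9 and 28.8 CPM, each with an interval that includes 0. Most of these cells, 165 of 174 and 177 of 190, had no UMI of Xist or of the Y-linked genes.

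Many of the genes were read together in the same cells. After thinning to 2000 UMIs, a cell was called S-high with at least 4 distinct genes of the 32; this is a range of a count and not a cell type, and 59 WT and 38 Ifnar1-SA CD8 T cells had exactly 4 while 95 and 38 had exactly 3. Among CD8 T cells 339 of 926 WT cells (36.6%, exact interval 33.5 to 39.8) and 166 of 635 Ifnar1-SA cells (26.1%, 22.8 to 29.7) were S-high, a difference of -10.5 percentage points (-15.0 to -5.79). Among regulatory T cells the shares were 125 of 324 (38.6%) and 125 of 469 (26.7%), a difference of -11.9 points (-18.5 to -5.31). In macrophages they were 14.3% and 15.0%, and in Rhox5-gate cells 29.9% and 26.3%, with intervals of the difference that include 0. In the migratory dendritic-type cells 1 of 27 and 1 of 37 cells were S-high (3.7% and 2.7%). Without thinning the shares in CD8 T cells were 55.7% and 45.1%, in regulatory T cells 54.9% and 44.0% and in macrophages 50.9% and 53.4%.

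S-high cells were chosen on UMIs of these genes, so their share of those UMIs is a description. They carried 78.5% of the thinned UMIs of the 32 genes in WT CD8 T cells and 71.7% in Ifnar1-SA ones. An S-high CD8 T cell had a mean of 10.1 such UMIs (WT) and 9.36 (Ifnar1-SA), and the other CD8 T cells had 1.60 and 1.30. S-high cells were also deeper before thinning, with medians of 10340 and 7862 UMIs against 5281 and 5037. Cells with at least 8 distinct genes were 14.7% of WT and 9.61% of Ifnar1-SA CD8 T cells.

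**Figure D3:**
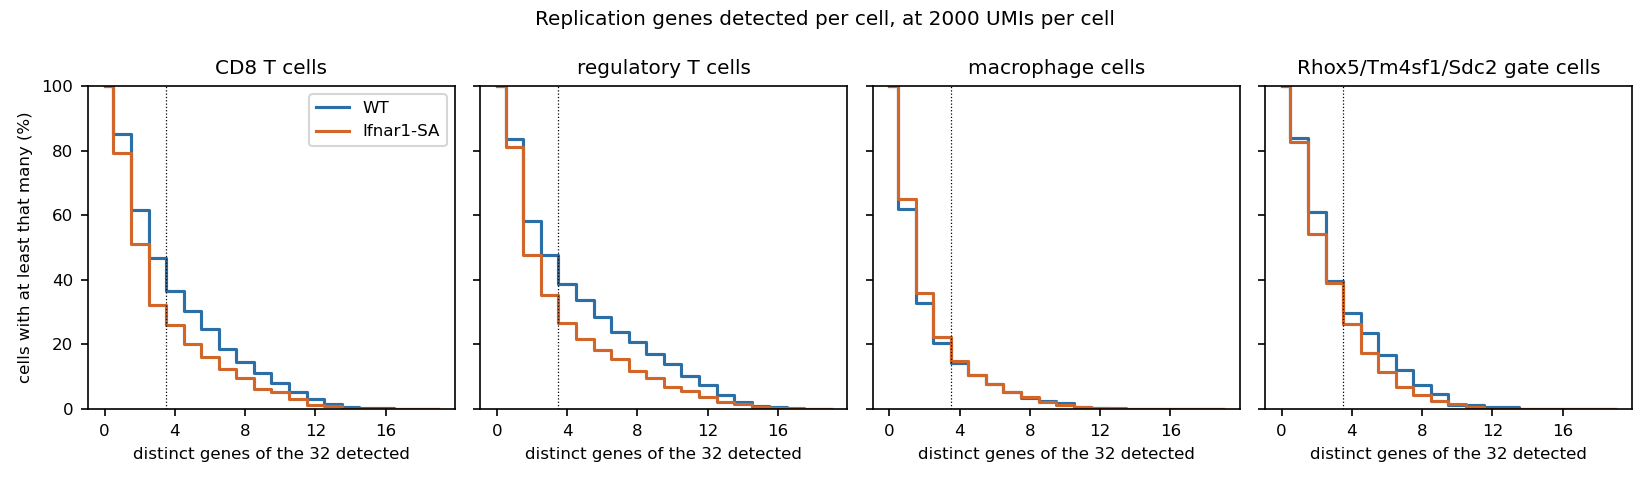
Percentage of cells (y axis) with at least a given number of distinct replication genes (x axis) after thinning to 2000 UMIs, by gate, WT in blue and Ifnar1-SA in orange; the dotted line marks the limit of S-high. The curves part in both T cell panels (36.6% against 26.1% at 4 genes in CD8 T cells) and run together in macrophages.

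The sex-linked transcripts moved with this difference. Within the Ifnar1-SA library, S-high CD8 T cells were 103 of 429 (24.0%) with Xist alone, 62 of 195 (31.8%) without Xist and 47 of 124 (37.9%) with Y-linked UMIs alone, against 37.2% of the 903 WT cells with Xist alone. In WT, 3 of the 23 CD8 T cells without Xist were S-high (13.0%, 2.78 to 33.6), a share below that of the WT cells with Xist alone and thus in the opposite order to Ifnar1-SA; their median depth was 4239 UMIs against 6517. Detection of Xist depends on depth, so cells with at least 4000 UMIs were compared too: 27.8% of 324 Ifnar1-SA cells with Xist alone and 47.2% of 108 without Xist were S-high, against 43.2% of 708 WT cells with Xist alone. In regulatory T cells of that depth the shares were 30.4% of 309, 14 of 24 (58.3%, 36.6 to 77.9) and 44.3% of 237. In macrophages they were 15.2%, 17.3% and 15.0%. At this depth the share in Ifnar1-SA T cells was below that of WT cells with Xist alone in cells with Xist alone and not in those without; WT cells without Xist were too few to compare at this depth. Whether that split follows animals, and its part in the difference, was not tested.

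**Figure D4:**
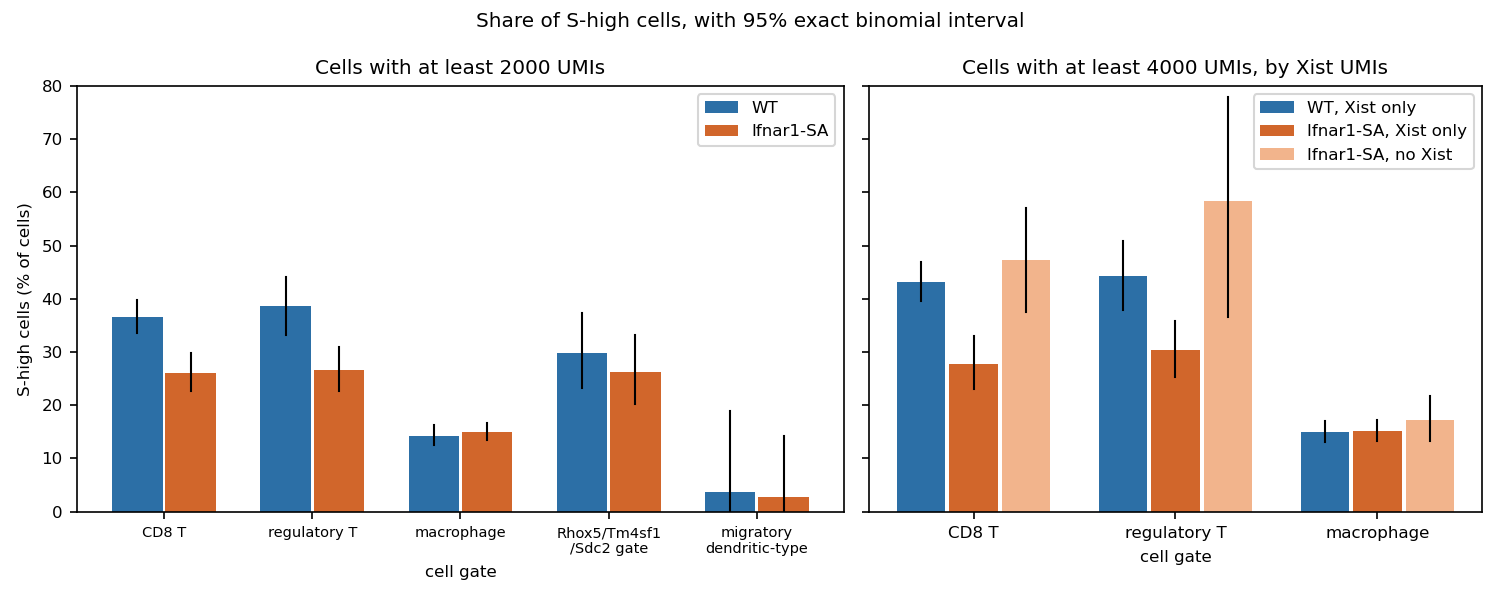
Percentage of S-high cells with exact binomial 95% intervals. Left, all cells of at least 2000 UMIs by gate and library; right, cells of at least 4000 UMIs by library and Xist, where Ifnar1-SA T cells with Xist alone (27.8% and 30.4%) lie below WT and those without Xist (47.2% and 58.3%) do not.

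The same split was seen gene by gene. Over cells of at least 2000 UMIs in the Ifnar1-SA library, 22 of 25 genes counted were higher in CD8 T cells without Xist than in those with Xist alone, against 58% of all genes, and 6 were at least 1.5-fold higher, against 6.17%. In regulatory T cells 27 of 28 were higher, against 56.8%, and 20 at least 1.5-fold, against 16.8%; only 38 cells without Xist stood behind this. In macrophages 16 of 21 were higher, against 48.7%, and 1 at least 1.5-fold, against 2.07%. Pcna was at 169 CPM in CD8 T cells with Xist alone and 222 CPM in those without (0.39, 0.17 to 0.61). Cdk6 differed less, at 103 and 122 CPM (0.24, -0.06 to 0.54), and both values lay below the 233 CPM of WT cells with Xist alone. In CD8 T cells the median log2 ratio of the genes was -0.55 for Ifnar1-SA cells with Xist alone against WT cells with Xist alone. Against all WT cells it was -0.26 for Ifnar1-SA cells without Xist. For those with Y-linked UMIs alone, which are part of the cells without Xist, it was 0.015 against all WT cells. The log2 ratio of Cdk6 in these comparisons was -1.19, -0.93 and -0.86. In regulatory T cells the medians of the same comparisons were -0.48, 0.15 and 0.48, the last from only 24 Ifnar1-SA cells.

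The replication genes were next set beside 25 genes of G2 and mitosis that share no member with them. In CD8 T cells 20 of the 25 were counted and 20 were lower in Ifnar1-SA, against 49.3% of all genes, with a median of -0.75. Top2a was at 324 and 174 CPM and Mki67 at 99.0 and 57.5 CPM. Of the list 19 of 21 were lower in regulatory T cells (median -0.51), against 51.6% of all genes, and in macrophages 5 of 10, against 31.7%. In Rhox5-gate cells all 24 counted were lower, against 39.7% of all genes. Their median was -0.46, and 7 were at least 1.5-fold lower, against 1.05% of all genes, while the median of the replication genes there was -0.09. Cells with at least 4 distinct genes of this list (G2/M-high) were 21.3% of WT and 12.1% of Ifnar1-SA CD8 T cells, and 21.9% and 13.6% of regulatory T cells. Among cycling CD8 T cells, those high for either list, S-high cells that were not G2/M-high (S-only) were 184 of 381 (48.3%, 43.2 to 53.4) in WT and 108 of 185 (58.4%, 50.9 to 65.6) in Ifnar1-SA. They were 51.0% and 54.3% in regulatory T cells. The intervals of the libraries overlap in both gates.

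The ratios were also taken within G2/M-high cells and within the others. In regulatory T cells the median log2 ratio of the 27 genes was -0.01 in G2/M-high cells (71 WT, 64 Ifnar1-SA) and -0.65 in the others; in CD8 T cells it was -0.20 and -0.33, in macrophages -0.19 and 0.04, and in Rhox5-gate cells 0.03 and -0.02. The median thus lay nearer 0 in G2/M-high cells in the T cell gates and farther from 0 in macrophages. Cdk6 in CD8 T cells was lower in both, at 228 and 152 CPM in G2/M-high cells (-0.59, -0.88 to -0.30) and at 233 and 96.9 CPM in the others (-1.26, -1.44 to -1.09). In CD8 T cells with a UMI of Xcl1, a chemokine gene, S-high cells were 37.0% of 192 in WT and 24.5% of 212 in Ifnar1-SA, and without one 36.5% of 734 and 27.0% of 423. Of the cells with a UMI of Tcf7, a factor of naive and stem-like T cells, 0 of 23 in WT (0 to 14.8%) and 3 of 20 in Ifnar1-SA (3.21 to 37.9%) were S-high, against 37.5% and 26.5% of those without one; the Ifnar1-SA interval includes the latter share. In macrophages with a UMI of Ly6c2, a monocyte gene, 7.9% of 329 WT and 10.0% of 669 Ifnar1-SA cells were S-high, against 16.3% of 1050 and 17.6% of 1253 without one.

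The genes differ in how closely they are tied to the others. Over the T cells of both libraries, each gene was compared between cells with at least 4 of the other 31 genes and cells with 0 or 1. Rrm2 was at 202 and 2.85 CPM, a 70.7-fold difference (32.1 to 194), and it was 64.9-fold in CD8 T cells and 83.2-fold in regulatory T cells alone. Pclaf was 34.8-fold (25.1 to 49.4), Cdc45 35.1-fold (11.6 to 174) and Uhrf1 32.8-fold (13.6 to 103), with intervals that overlap. The order depended on the gate: in regulatory T cells Rrm1 was at 130.1-fold (22.7 to 5199, from 84 and 1 UMIs), and in CD8 T cells at 14.3-fold. The lowest in each T cell gate were Cdk6, Cdt1 and Slbp, the histone mRNA binding factor. Slbp was 3.34-fold in CD8 T cells and 4.91-fold in regulatory T cells, Cdt1 2.39-fold and 4.66-fold, and Cdk6 1.34-fold and 1.10-fold. Over both gates Cdk6 was at 235 and 191 CPM (1.23-fold, 1.07 to 1.42). With libraries and gates pooled, Cdk6 RNA was thus present at nearly the same level in T cells with and without the other genes. By G2/M-high status the libraries differed in CD8 T cells. Cdk6 was at 228 CPM in G2/M-high cells and 233 CPM in the others in WT, but at 152 and 96.9 CPM in Ifnar1-SA. Mcm10 had 0 UMIs in the cells with 0 or 1 others and was at least 15.7-fold higher, against a floor of 3 UMIs. In macrophages the order was like in part, with Ccne2 (82.6-fold, 21.3 to 707.6, from 37 and 2 UMIs) and Rrm2 (43.8-fold) high and Cdk6 (1.94-fold) low; E2f1 was 5.2-fold there and 13.5-fold in T cells.

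The genes also differed between S-only and G2/M-high cells. Most G2/M-high T cells were S-high as well: 155 WT and 58 Ifnar1-SA CD8 T cells and 51 and 49 regulatory T cells were high for both lists, against 42, 19, 20 and 15 for the G2/M list alone, so these are not separate phases. Between S-only cells and G2/M-high cells of the T cell gates, where the S-only cells but not the G2/M-high ones had to hold 4 of the other genes, Cdt1, whose protein is destroyed once S phase starts, was at 39.1 and 14.7 CPM (log2 ratio 1.41, 0.43 to 2.50). Mcm2 (0.82), Gins2 (0.69), Mcm4 (0.61), Mcm6 (0.57), Hells (0.57), Mcm5 (0.54) and Lig1 (0.42) were likewise higher in S-only cells, with intervals above 0. Pclaf was at 352 and 869 CPM (-1.30, -1.50 to -1.11), and Rrm2 (-1.15), Tyms (-0.78), Clspn (-0.65), Rrm1 (-0.59) and Tk1 (-0.52) were also higher in G2/M-high cells. The intervals of Mcm3, Mcm7, Cdc6 (-0.22, -1.09 to 0.63) and Dut (0.06, -0.12 to 0.25) include 0.

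**Figure D5:**
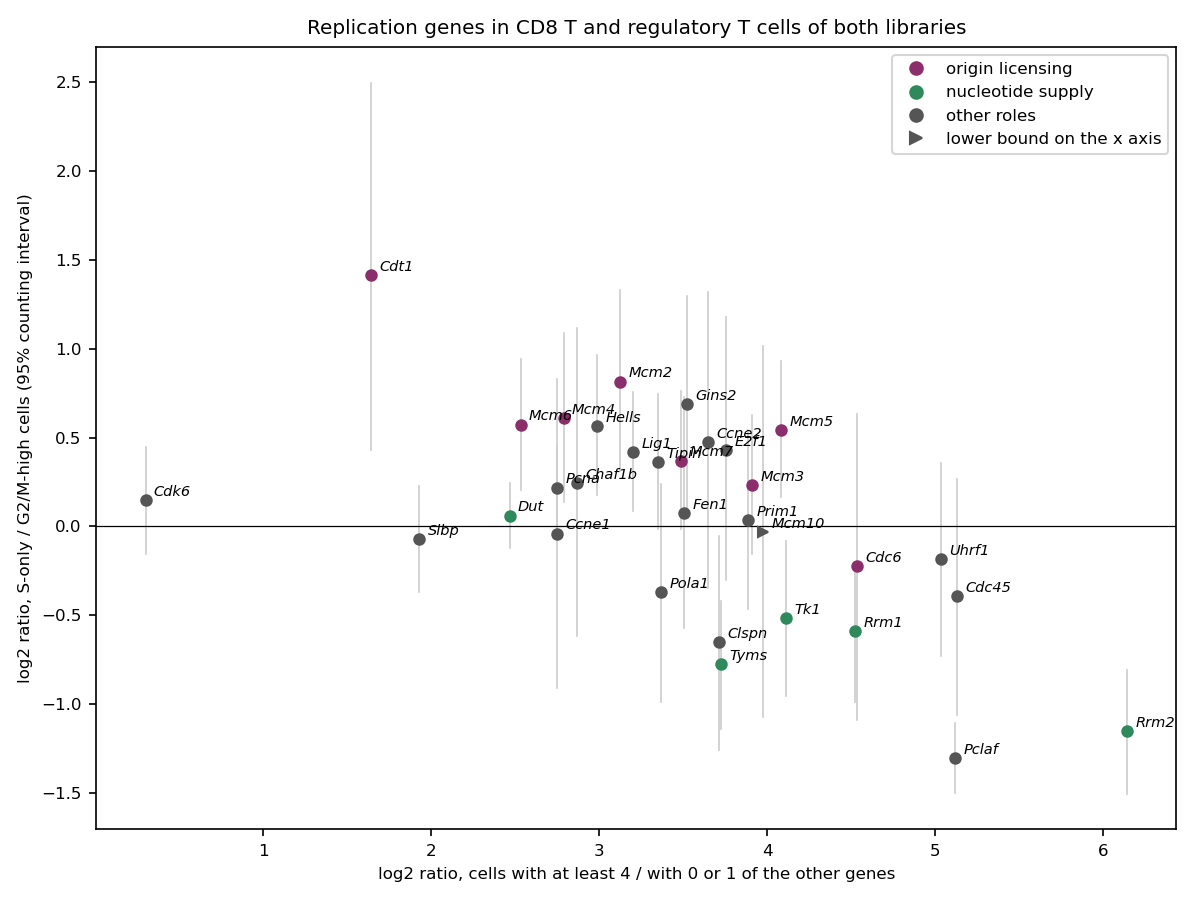
For each gene in T cells of both libraries, the log2 ratio between cells with at least 4 and with 0 or 1 of the other genes (x axis) and between S-only and G2/M-high cells (y axis, with 95% counting intervals as grey bars). Cdk6 lies far left (1.23-fold), Rrm2 far right (70.7-fold), and Cdt1 and Pclaf at the top and bottom.

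The other genes of replication and of the G1/S step were described by a list of 79 that holds none of the 32. In CD8 T cells 53 were counted and 45 were lower in Ifnar1-SA, against 49.3% of all genes, with 7 at least 1.5-fold lower (2.58% of all), 1 at least 1.5-fold higher (3.24%) and a median of -0.30, beside -0.48 for the 32 genes. In regulatory T cells 47 of 55 were lower (51.6% of all), with 10 at least 1.5-fold lower (2.8%), 2 at least 1.5-fold higher (4.4%) and a median of -0.32, beside -0.47. In macrophages 12 of 33 were lower, close to the 31.7% of all genes, and in Rhox5-gate cells 31 of 45, against 39.7%, with medians of 0.04 and -0.10, beside -0.01 and -0.09. The greatest in CD8 T cells were Ccna2, cyclin A (84.5 and 38.2 CPM, -1.14), Wdhd1, a fork factor (27.5 and 13.5 CPM, -1.03) and Ccnd2, cyclin D2, which was higher (124 and 202 CPM, 0.70). Ccna2 is also among the genes of G2 and mitosis above, so both lists count it. In regulatory T cells the repair gene Brca1 (34.3 and 16.4 CPM, -1.06) and the primase subunit gene Prim2 (29.5 and 16.4 CPM, -0.85) were among the greatest. Samhd1, whose product degrades dNTPs, was higher in Ifnar1-SA in macrophages (310.1 and 389 CPM, 0.33), in regulatory T cells (317 and 516 CPM, 0.70, 0.58 to 0.82) and in CD8 T cells (123 and 164 CPM, 0.41). In macrophages Ccnd3 (0.27) and Pole3 (0.26) were higher too. The G1 cyclins, kinases and inhibitors of the list did not share the direction in CD8 T cells, where 2 of 7 were lower and 5 higher, so that Ccnd2 and Cdk6, partners in 1 kinase complex, differed in opposite directions.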

How the data were processed

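The deposited values are raw UMI counts per gene and barcode from Cell Ranger 4, per the file headers, against mm10, per the submitters' processing notes; the deposited matrices were not filtered for cells. The 32 genes, the lists, gates and limits were chosen with earlier results of these data known. Barcodes with at least 1000 UMIs, 500 genes and at most 10% mitochondrial UMIs that met exactly 1 gate were kept: CD8 T (Cd3e, Cd3g and Trac at least 2, Cd8a and Cd8b1 at least 2), regulatory T (the same T genes, Foxp3 at least 1), macrophage (C1qa, C1qb and C1qc at least 20) and Rhox5-gate (Rhox5, Tm4sf1 and Sdc2 at least 10). The genes Cd3e, Trac, Cd8a, Foxp3, C1qa to C1qc, Rhox5, Tm4sf1 and Sdc2 chose the cells, so their levels are no result. No doublet caller was run; barcodes in more than 1 gate were left out.

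UMIs were summed per gate and library and scaled to CPM over all genes. The log2 ratio has an exact conditional binomial 95% interval, CPM an exact Poisson, shares a Clopper-Pearson and differences of shares a Newcombe interval; UMIs count molecules, and the intervals cover counting error only. Shares of cells used cells thinned at random to 2000 UMIs, leaving out 86 WT and 66 Ifnar1-SA CD8 T cells, 20 and 35 regulatory T cells and 25 and 41 macrophages. Named genes were, for each gate, the 4 with the greatest ratio whose interval excludes 0, plus Pcna, Mcm5, Tyms, Rrm2, Pclaf, Cdk6, E2f1 and Ccne2, the 3 greatest of the 79 other genes (1 of those in regulatory T cells is not reported here), and Mki67 and Top2a; further ones were named after their values were seen. Tested on simulated CD8 T counts of 4970 genes, the ratio's interval covered the true value for 94.9% of genes, and 99% of 200 genes changed 2-fold were past 1.5-fold. These counts were drawn from the Poisson model that the interval assumes. The simulation thus checks the calculation, and holds no spread between cells or animals. Python 3.11.15, numpy, scipy, pandas and matplotlib were used.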

Additional observations from a re-analysis of the deposited data

Results flagged for a closer look

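For 4 genes the ratios of Ifnar1-SA over WT had intervals on opposite sides of 0 in different gates. Cdk6 had a log2 ratio of -1.13 in CD8 T cells and 0.45 in macrophages, Gins2 -0.80 in regulatory T cells and 0.19 in macrophages, and Mcm7 -0.52 in CD8 T cells and 0.27 in Rhox5-gate cells. Tk1 had -0.60 in CD8 T cells, -0.68 in regulatory T cells and 0.15 in macrophages. With 1 library per genotype these differences between gates were not tested, nor was the part of T cell transcripts in the macrophage values.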

How the results depend on the processing

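No paired analysis was possible because each genotype is 1 library, and leaving out a library ends the comparison. Of 140 recomputed values of the comparisons, 101 stayed within the counting error of the value given, 32 moved and 7 changed sign; of 461 values of named genes 22 changed sign. The 5 alternatives chosen after seeing the data include the cells without Xist and those with Y-linked UMIs. Counts of genes lower or past 1.5-fold in the alternatives below are given without the share over all genes, so they have no background. Cells of the Rhox5 gate gave no value by Xist, since nearly all lack it.

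Against WT, Ifnar1-SA cells without Xist gave a median log2 ratio of -0.26 with 3 genes 1.5-fold lower in CD8 T cells, 0.15 with 10 genes lower and 1 of them 1.5-fold in regulatory T cells, and 0.18 in macrophages, and differences in the S-high share of -4.81 and 6.16 points in the T cell gates. Single genes that changed sign there were E2f1 (0.11) in CD8 T cells, Ccne2 (0.028), Mcm5 (0.14), Pcna (0.44) and Uhrf1 (0.16) in regulatory T cells, and Tyms (0.022) in macrophages. The regulatory T gate held only 24 Ifnar1-SA cells with Y-linked UMIs alone. Of these, 20 had at least 2000 UMIs, and 13 of the 20 were S-high (65%, 40.8 to 84.6). Cells with Y-linked UMIs alone gave medians of 0.015 (14 genes lower, 1 of them 1.5-fold), 0.48 (3 lower, 0 of them 1.5-fold) and 0.16, and share differences of 1.29 and 26.4 points. There E2f1 (0.50), Pclaf (0.11), Pcna (0.071), Rrm2 (0.23) and Tyms (0.044) changed sign in CD8 T cells; Ccne2 (0.0026), Cdc45 (0.40), Gins2 (0.27), Mcm5 (0.25), Pclaf (0.10), Pcna (0.74), Rrm2 (0.21), Tyms (0.20) and Uhrf1 (0.56) in regulatory T cells; and Tyms (0.16) in macrophages. Cells with Xist and no Y-linked UMIs in both libraries gave medians of -0.55 with 10 genes 1.5-fold lower in CD8 T cells and -0.059 in macrophages.

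With G2/M-high and other cells weighted alike in both libraries, the medians were -0.27 (2 genes 1.5-fold lower) in CD8 T cells, -0.33 (4 genes) in regulatory T cells and 0.0098 in Rhox5-gate cells. At most 5% mitochondrial UMIs gave -0.40 with 3 genes in CD8 T cells and -0.050 in Rhox5-gate cells. Keeping cells of more than 1 gate gave 10 genes in CD8 T cells and -0.36 with 5 genes in regulatory T cells. The mean of per-cell CPM gave -0.38, -0.54 and 0.040 in CD8 T cells, regulatory T cells and macrophages, and median-of-ratios scaling -0.078 in macrophages and -0.12 in Rhox5-gate cells. No minimum gave -0.51 in regulatory T cells, and leaving out the 5 cells with most UMIs of the genes -0.51 in CD8 T cells. Without the deepest 5% of barcodes, which takes out most Rhox5-gate cells, their median was -0.77 and Mcm7 was at -0.57. The cause of each shift was not tested. Single genes near 20 CPM rest on under 100 UMIs in regulatory T cells, which sets their wide intervals.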
